A study of Mus musculus with 6 samples.

Results

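The T cell receptor beta locus was examined in lung ILC2s of neonatal mice. Its members were the genes whose symbol names a V, D, J or C segment of the locus (Trbv, Trbd, Trbj or Trbc with a number), 53 of the 55394 genes in the files. They comprised 35 V genes, of which 13 are annotated as pseudogenes, 2 D genes, 14 J genes and 2 C genes. The locus was singled out because its genes stood out between the same groups of libraries, so its levels in both groups are given as a description, and the counts of its genes that pass a threshold are given without weight. The libraries came from pups of C57BL/6 dams (C57BL/6J in the study's methods). In the Abx group, 3 libraries, the dams drank water with ampicillin, metronidazole, neomycin and vancomycin from gestation day 10 to 14. In the Con group, also 3 libraries, the dams received no antibiotics. Each library was made by SMART-seq, a full-length cDNA method for few cells, from 1000 sorted ILC2s. The sort took CD45+, lineage-negative, CD90.2+, CD25+ cells, and the lineage antibodies included ones against CD3e, CD4, CD5, CD8a and TCR-β, and against Gr1, B220, NK1.1, CD11b, CD11c and Ter119, so cells with a T cell receptor on their surface were meant to be left out. The age of the pups of these libraries and whether animals were pooled are not given in the sources used here, so the spread between libraries may be partly technical.

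Group 2 innate lymphoid cells (ILC2s) belong to the lymphocytes but carry no rearranged antigen receptor on their surface. In T cell precursors the beta chain gene is assembled by the RAG recombinase, which joins a D to a J segment and then a V segment to the DJ unit, and splicing links the joined exon to a C gene. Transcripts of the locus can also be germline: promoters close to the D segments give RNA that runs through J and C without a V segment, and unjoined V genes can be transcribed on their own. A beta chain pairs first with the pre-T alpha chain (Ptcra) and later with an alpha chain, and reaches the surface only with the CD3 proteins.

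The level of a gene is given as FPKM, fragments scaled to exon length and to the mapped fragments of the library, so levels of genes can be compared per length. The sum of FPKM over all genes was between 420941 and 489262 in the 6 libraries, and 7074 to 9203 genes reached 1 FPKM. The number of reads behind a value is unknown, and a gene listed at 0 may still have been transcribed. Across the 8718 genes tested, libraries correlated at 0.805 to 0.846 within Con and at 0.655 to 0.690 within Abx (Pearson's r across genes, which are not independent replicates). The range between the groups was 0.674 to 0.766. The Abx libraries were thus less alike than the Con libraries, and no more like each other than like the Con libraries. Among 16 ILC2 markers none was listed at 0 in all libraries, with Gata3 at 33.9 to 97.5 FPKM and Id2 at 782 to 1315 FPKM, and both overlapped between the groups. Of the 16, 4 were lower in every Abx library (Areg, Arg1, Icos and Il1rl1) and 1, Ptprc, was higher, and limma called none of those that were tested. Over the 8718 genes tested, 8.73% were lower and 8.49% higher in every Abx library. Areg was at 657 to 783 FPKM over the Con libraries and at 197 to 393 FPKM over the Abx libraries. Il1rl1, the IL-33 receptor, was the low exception, at 0.06, 0.89 and 2.94 FPKM across the Con libraries against 0.03, 0.01 and 0.03 FPKM across the Abx libraries. Xist, a transcript of the inactive X chromosome, was at 3.78, 4.38 and 5.09 FPKM in Con and listed at 0 in all 3 Abx libraries, and what moves with it cannot be told apart from the group.

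The 53 genes lie on chromosome 6 of GRCm38 from 40891229 to 41558452, a span of 667 kb, in the order V, D1, J cluster 1, C1, D2, J cluster 2, C2. Trbv1 is 641 kb and Trbv30, the nearest V gene on that side, 251 kb before Trbd1. Trbv31 lies behind Trbc2 on the opposite strand. All 53 symbols and identifiers matched the GENCODE M21 annotation, from whose transcripts the sequences below were taken. The D segments and the J segments that held most of the J signal, with Trbj1-4, which held none, are printed first because they show how short these features are. Capitals mark the motif TTNGG, then 4 bases, then GG, searched on the coding strand, which covers part of the codons of the phenylalanine and glycines that J segments are known to share.
Trbd1 (chr6:41533201-41533212): gggacagggggc
Trbd2 (chr6:41542163-41542176): gggactgggggggc
Trbj1-1 (chr6:41533864-41533911): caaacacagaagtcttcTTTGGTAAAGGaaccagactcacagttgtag
Trbj1-2 (chr6:41534001-41534048): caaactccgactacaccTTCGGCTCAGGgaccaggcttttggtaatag
Trbj1-4 (chr6:41534811-41534861): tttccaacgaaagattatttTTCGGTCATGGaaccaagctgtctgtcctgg
Trbj2-1 (chr6:41542754-41542803): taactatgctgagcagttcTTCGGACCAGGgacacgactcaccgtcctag
Trbj2-6 (chr6:41543598-41543645): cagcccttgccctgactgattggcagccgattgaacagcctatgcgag
Trbj2-7 (chr6:41543810-41543856): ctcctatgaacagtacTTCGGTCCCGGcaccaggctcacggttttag
The motif was present in 11 of the 14 beta J genes and absent from Trbj1-6, Trbj1-7 and Trbj2-6. It was present in 48 of 66 J genes of the other T cell receptor loci (72.7%). Trbj2-6 is annotated as a pseudogene, and its letters do not hold the motif.

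The 2 C genes are nearly the same in their coding part. Of 518 aligned coding bases 23 differed (95.6% identity), and the first exon of 375 bases differed at 1 base. The remaining coding bases, 376 to 518 counted from the first coding base, are shown with the differing bases in capitals, because 22 of the 23 differing bases lie here, and reads can be assigned to 1 of the 2 genes only where a differing base or a 3' end is covered.
Trbc1 (gene at chr6:41538218-41539881): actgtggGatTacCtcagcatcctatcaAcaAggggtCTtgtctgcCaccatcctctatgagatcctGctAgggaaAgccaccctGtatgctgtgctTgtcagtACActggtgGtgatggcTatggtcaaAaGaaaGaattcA
Trbc2 (gene at chr6:41546730-41548352): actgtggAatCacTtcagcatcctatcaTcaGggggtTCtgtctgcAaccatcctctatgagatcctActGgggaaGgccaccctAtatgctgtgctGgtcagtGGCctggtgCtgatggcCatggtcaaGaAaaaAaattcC
The longest run without a difference was 259 bases, and the untranslated parts shared 49.6% of their aligned bases. How the authors' counting divided reads that fit both genes is not known, so the balance between Trbc1 and Trbc2 is uncertain while their sum is less so.

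Among the 22 V genes that are not pseudogenes, most sequences were far apart, with a median identity of 53.0% over all pairs. Only 5 had a neighbour at 80% or more: Trbv13-1, Trbv13-2 and Trbv13-3, and the pair Trbv12-1 and Trbv12-2 (88.2%). Trbv13-2 and Trbv13-3 were 90.6% identical. The last 120 coding bases of the Trbv13 genes are shown, since Trbv13-2 had the highest mean level of all V genes and is the one most open to shared reads. Capitals mark positions at which the 3 genes are not all alike, and the run ttctgtgccagc near the end encodes the conserved cysteine where the joined region begins.
Trbv13-1 (gene at chr6:41116007-41116468): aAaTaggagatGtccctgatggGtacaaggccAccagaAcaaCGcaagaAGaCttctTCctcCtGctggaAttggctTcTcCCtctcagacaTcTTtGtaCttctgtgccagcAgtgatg
Trbv13-2 (gene at chr6:41121396-41121832): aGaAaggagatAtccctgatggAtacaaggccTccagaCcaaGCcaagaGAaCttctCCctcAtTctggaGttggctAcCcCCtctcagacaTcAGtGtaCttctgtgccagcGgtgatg
Trbv13-3 (gene at chr6:41130147-41130585): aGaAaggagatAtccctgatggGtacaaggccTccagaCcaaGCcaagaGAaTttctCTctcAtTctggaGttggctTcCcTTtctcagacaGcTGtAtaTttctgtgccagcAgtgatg
In this stretch 26 positions were in capitals, so a read across it can tell these genes apart.

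The locus as a whole was expressed in both groups, and its summed level was higher in every Abx library than in every Con library. The 53 genes summed to 1739.95, 1410 and 1661 FPKM across the Con libraries against 3771, 3716 and 3487 FPKM across the Abx libraries. This was 0.333% to 0.395% of all FPKM in Con and 0.759% to 0.842% in Abx. The mean was 1604 ± 173 FPKM in Con against 3658 ± 151 FPKM in Abx (SD, n = 3 each), a ratio of 2.28. In libraries made from many cells, more cells with a transcript and more transcript per cell cannot be told apart.

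The classes differed in how far the Abx libraries stood above the Con libraries. The V genes summed to 98.6, 77.8 and 117 FPKM across the Con libraries against 865, 519.65 and 563 FPKM across the Abx libraries, a ratio of 6.65. The C genes summed to 1285, 1082 and 1228 FPKM across the Con libraries against 2272, 2582 and 2448 FPKM across the Abx libraries, a ratio of 2.03. The J genes summed to 267, 198 and 226 FPKM across the Con libraries against 465, 535 and 353 FPKM across the Abx libraries, a ratio of 1.96. In these 3 classes the libraries of the groups did not overlap, and the V genes had the widest gap. The D genes summed to 89.7, 51.9 and 91.2 FPKM across the Con libraries against 169, 79.1 and 124 FPKM across the Abx libraries, and here the groups overlapped.

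**Figure D1:**
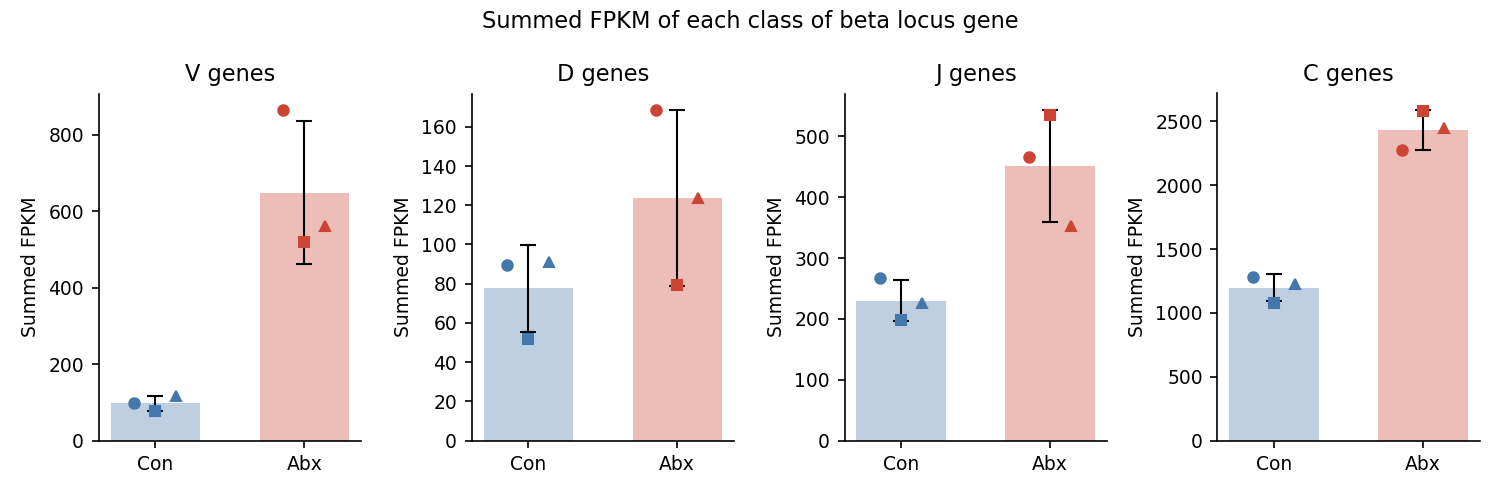
Summed FPKM of the V, D, J and C genes in the Con and Abx groups (linear axes from 0). Points are libraries (circle 1, square 2, triangle 3), bars the mean and error bars the SD of 3 libraries. The V sums reach 519.65 to 865 FPKM in Abx against 77.8 to 117 FPKM in Con, and the D sums overlap.

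Most of the signal lay on the C genes in both groups, and the share held by V genes was larger in Abx. The C genes held 74.8% ± 1.64 of the FPKM of the locus in Con and 66.6% ± 5.55 in Abx (SD, n = 3 each). The V genes held 6.07% ± 0.828 in Con and 17.7% ± 4.67 in Abx. J genes held 14.3% ± 0.895 and 12.3% ± 2.14 in Con and Abx, and D genes 4.77% ± 0.961 and 3.38% ± 1.18. D and J genes are 12 to 54 bases long, shorter than a usual cDNA fragment, so that few fragments give them a high FPKM. When each FPKM was multiplied by the exon length of its gene, which is in proportion to aligned bases, the C genes held 94.2% in Con and 86.2% in Abx. On that scale the V genes held 4.44% in Con and 12.6% in Abx, the J genes 1.25% and 1.09%, and the D genes 0.111% and 0.0830%.

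Set against the C genes of the same library, the V genes were higher in Abx and the J genes were not. The summed V level was 7.67%, 7.19% and 9.50% of the summed C level in Con and 38.1%, 20.1% and 23.0% in Abx. The lowest Abx library was above the highest Con library, and Abx library 1 was far above the other two. The summed J level was 20.7%, 18.3% and 18.4% of the C level in Con and 20.5%, 20.7% and 14.4% in Abx, with overlap. D genes were at 6.40% ± 1.41 of the C level in Con and 5.18% ± 2.18 in Abx (SD, n = 3 each), also with overlap. Within the first D-J-C cluster, the J genes were at 33.9%, 30.4% and 34.1% of Trbc1 in Con and at 28.6%, 23.2% and 18.9% in Abx, so here the Abx libraries were the lower ones. In the second cluster the J genes were at 14.8% ± 0.80 of Trbc2 in Con and 16.5% ± 3.64 in Abx, and the groups overlapped.

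**Figure D2:**
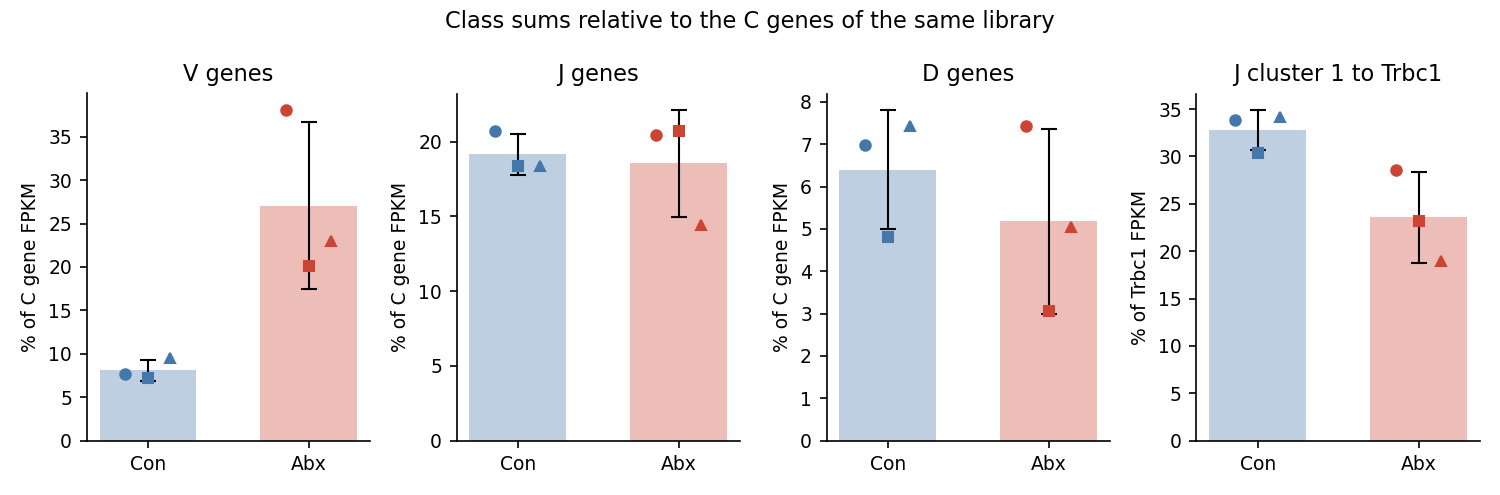
Summed V, J and D levels as a percent of the summed C level of the same library, and J cluster 1 as a percent of Trbc1 (linear axes from 0). Points are libraries (circle 1, square 2, triangle 3), bars the mean and error bars the SD of 3 libraries. V genes stand at 20.1% to 38.1% in Abx against 7.19% to 9.50% in Con, while J and D genes overlap and J cluster 1 is lower in Abx.

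Of the 53 members 35 passed the filter of at least 1 FPKM in at least 3 libraries, comprising 19 V, 2 D, 12 J and 2 C genes, and 18 did not. Listed at 0 in all 6 libraries were 13 members, 12 V genes and Trbj1-4. All 3 Abx libraries were above all 3 Con libraries in 20 members, namely 13 V, 1 D, 4 J and both C genes, and in no member were they all below. All 20 were among the 35 tested. Over the 8718 genes tested, the Abx libraries were all above in 8.49% and all below in 8.73%. In the comparison of all genes tested, 5 genes (0.0574%) differed more than 2-fold with a limma adjusted p below 0.05, the rule for a call. No member of the locus was among them, while 17 of the 35 had an unadjusted p under 0.05 and a higher level in Abx, beside 4.74% of all genes tested with such a p in that direction. As the locus was chosen on this contrast, nothing is read from these counts. The fitted difference, Abx minus Con on log2(FPKM + 1), had a median of 1.35 over the 35 members and of -0.06 over all genes tested.

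The C genes, which encode the constant part of the beta chain, were the most abundant members. Trbc2 was at 898, 874 and 958 FPKM across the Con libraries against 1639, 1803 and 1731 FPKM across the Abx libraries, with a fitted difference of 0.92 (standard error 0.15). Trbc1 was at 387, 208 and 270.1 FPKM across the Con libraries against 633, 778 and 716 FPKM across the Abx libraries, with a fitted difference of 1.34 (standard error 0.26). Both were higher in every Abx library. Trbc2 was 3.36 ± 0.955 times as high as Trbc1 in Con and 2.44 ± 0.139 times in Abx (SD, n = 3 each), and the groups overlapped in this ratio.

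The D genes, which sit between V and J in the joined exon, gave different pictures. Trbd2 was at 41.1, 39.7 and 36.4 FPKM across the Con libraries against 122, 51.9 and 71.1 FPKM across the Abx libraries, without overlap. Trbd1 was at 48.6, 12.2 and 54.8 FPKM across the Con libraries against 46.6, 27.2 and 52.5 FPKM across the Abx libraries, so its groups overlapped throughout.

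In both groups the J signal was held by a few segments. Trbj2-1 and Trbj1-1 were the most abundant in Con, and Trbj1-1, Trbj2-1 and Trbj2-6 in Abx. The 3 highest J genes held 67.5% ± 9.23 of the J signal in Con and 71.4% ± 10.0 in Abx (SD, n = 3 each). The effective number of J genes, the inverse of the summed squared shares, which equals the number of genes when all are equal, was 5.34 ± 1.20 in Con and 5.21 ± 1.21 in Abx, with overlap.

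Trbj1-1 was at 60.8, 52.2 and 62.5 FPKM across the Con libraries against 147, 126 and 97.0 FPKM across the Abx libraries. Trbj1-2, beside it, was at 5.69, 6.68 and 11.3 FPKM across the Con libraries against 33.7, 40.1 and 27.8 FPKM across the Abx libraries. Both were higher in every Abx library, with fitted differences of 1.05 (standard error 0.26) and 2.01 (standard error 0.47). The rest of cluster 1 was uneven. Trbj1-3 was at 2.56, 4.10 and 2.76 FPKM across the Con libraries against 11.3 FPKM across the Abx libraries library 2, and was listed at 0 in the other two Abx libraries. Trbj1-5 had 14.4 and 8.22 FPKM in Con libraries 1 and 3 and 10.9 FPKM in Abx library 3, and was listed at 0 elsewhere. These genes appeared in some libraries and were missing in others of the same group. Trbj1-6 was at 23.9, 0.31 and 7.49 FPKM across the Con libraries against 3.03 FPKM across the Abx libraries library 2, listed at 0 in the other two. Trbj1-7 was at 23.8 FPKM in Con library 1, at 0.26 FPKM in Abx library 2 and listed at 0 in the remaining libraries.

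In cluster 2, Trbj2-1 was at 66.2, 71.0 and 71.1 FPKM across the Con libraries against 75.1, 124 and 92.8 FPKM across the Abx libraries. Its groups did not overlap, but the lowest Abx library was close to the Con libraries. Trbj2-6, the annotated pseudogene whose sequence stands above, was at 27.1, 17.9 and 11.5 FPKM across the Con libraries against 139, 70.3 and 81.0 FPKM across the Abx libraries. It had the largest fitted difference of the J genes, 2.32 (standard error 0.43), and was higher in every Abx library. Trbj2-7 was at 15.2, 28.0 and 21.2 FPKM across the Con libraries against 31.8, 22.3 and 24.1 FPKM across the Abx libraries, with overlap. The other members of the cluster varied between libraries of 1 group. Trbj2-3 was at 2.28, 15.6 and 11.1 FPKM across the Con libraries against 0.21, 30.8 and 18.2 FPKM across the Abx libraries. Trbj2-5 was at 8.46, 1.20 and 6.28 FPKM across the Con libraries against 35.3, 46.9 and 0.40 FPKM across the Abx libraries. Each was near 0 in 1 Abx library and high in another. Trbj2-2 was at 12.5, 0.41 and 7.92 FPKM across the Con libraries against 2.23, 24.2 and 0.75 FPKM across the Abx libraries. Trbj2-4 was at 3.68, 1.08 and 4.46 FPKM across the Con libraries against 0.29 and 36.0 FPKM across the Abx libraries libraries 1 and 2, and was listed at 0 in Abx library 3. Abx library 2 was the highest of the 6 in Trbj2-2, Trbj2-3, Trbj2-4 and Trbj2-5.

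**Figure D3:**
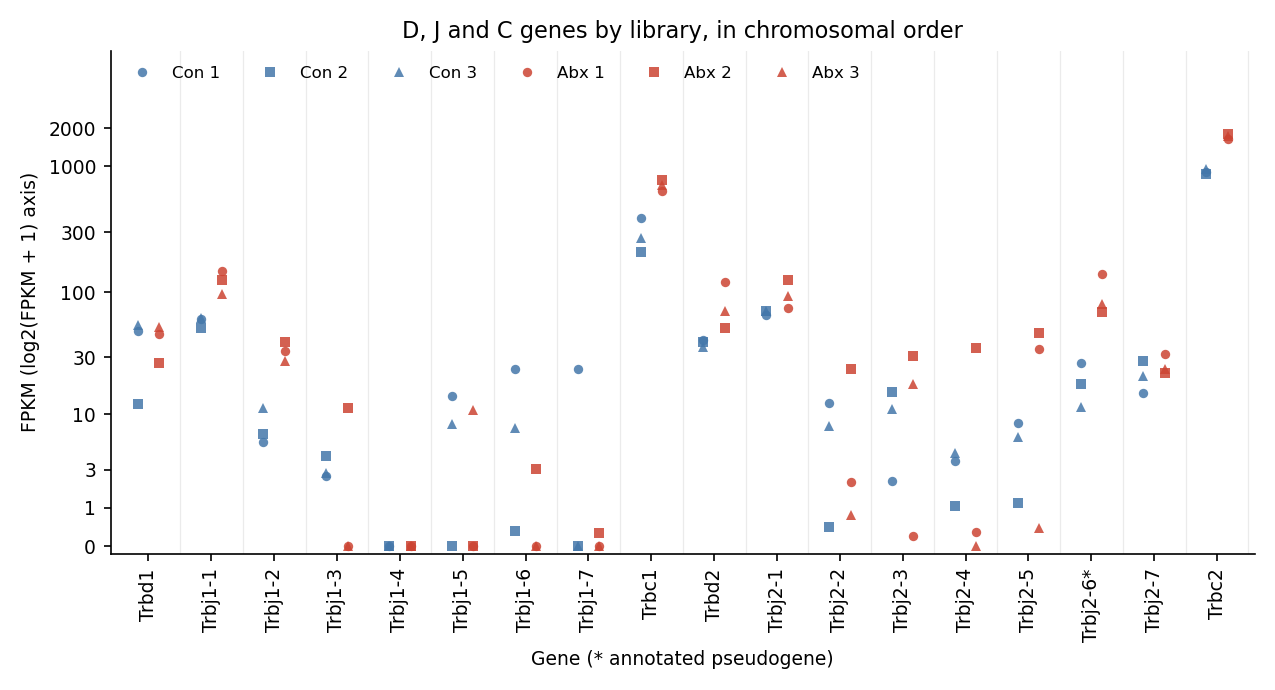
FPKM of each D, J and C gene in the 6 libraries, in chromosomal order, on a log2(FPKM + 1) axis labelled in FPKM. Blue is Con and red Abx, and circle, square and triangle are libraries 1, 2 and 3. Trbc1, Trbc2, Trbd2, Trbj1-1, Trbj1-2, Trbj2-1 and Trbj2-6 have all red points above all blue ones, and Trbj1-4 lies at 0 throughout.

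The V genes supply the part of the beta chain that is chosen from many. At 1 FPKM or more in every library of the group there were 13 V genes in Con and 19 in Abx. Counted by library, 15 ± 1 V genes reached 1 FPKM in Con and 19.7 ± 0.577 in Abx (SD, n = 3 each). All 12 V genes at 0 throughout were pseudogenes but for Trbv21. The other 2 pseudogenes were at or near 0 in most libraries. Trbv24 reached 7.45 FPKM in Abx library 2 but 0.22 FPKM in Abx library 1, and Trbv22 was at 0.15 FPKM in Abx library 1. Both were listed at 0 in all other libraries.

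Trbv13-2 and Trbv20 were among the lowest expressed V genes in Con and ranked higher in every Abx library. Trbv13-2 was at 0.56, 1.10 and 0.52 FPKM across the Con libraries against 130.1, 46.2 and 51.6 FPKM across the Abx libraries. Its fitted difference, 5.33 (standard error 0.63), was the largest of the locus. Trbv20 was at 0.27, 0.57 and 0.59 FPKM across the Con libraries against 105, 39.9 and 24.8 FPKM across the Abx libraries, with a fitted difference of 5.03 (standard error 0.73). Ranked by level within a library, Trbv13-2 was at place 17, 16 and 18 in Con and at place 1, 3 and 5 in Abx. Trbv20 was at place 19, 17 and 16 in Con and at place 2, 5 and 12 in Abx.

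Next in the size of the fitted difference came Trbv13-1, Trbv12-1 and Trbv3. Trbv13-1 was at 0.85, 2.96 and 2.86 FPKM across the Con libraries against 60.3, 27.9 and 51.7 FPKM across the Abx libraries. Trbv12-1 was at 1.32, 1.51 and 13.8 FPKM across the Con libraries against 42.2, 42.4 and 39.1 FPKM across the Abx libraries. In Trbv12-1 the Abx libraries were alike and Con library 3 stood between the groups. Trbv3 was at 1.37, 3.21 and 2.79 FPKM across the Con libraries against 10.5, 51.4 and 37.7 FPKM across the Abx libraries. The fitted differences of these genes were 3.90 (standard error 0.61), 3.25 (0.78) and 3.09 (0.75).

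Trbv12-2 and Trbv17 were already abundant in Con. Trbv12-2 was at 8.38, 11.8 and 11.7 FPKM across the Con libraries against 61.9, 47.3 and 57.0 FPKM across the Abx libraries, a ratio of means of 5.21. Trbv17 was at 10.3, 9.43 and 8.72 FPKM across the Con libraries against 54.3, 33.1 and 52.9 FPKM across the Abx libraries, a ratio of 4.92. Both were among the 8 highest V genes of every library, at places 5, 2 and 4 and places 3, 3 and 7 in Con and at places 6, 2 and 1 and places 8, 7 and 3 in Abx. Trbv1, the V gene farthest from the D segments, was at 6.67, 13.3 and 19.4 FPKM across the Con libraries against 92.8, 25.1 and 20.3 FPKM across the Abx libraries. It was the highest V gene of Con libraries 2 and 3, and its lowest Abx library was just above its highest Con library. Trbv13-3 was at 5.24, 6.22 and 5.11 FPKM across the Con libraries against 86.3, 21.2 and 12.4 FPKM across the Abx libraries. Trbv2, Trbv4 and Trbv16 did not overlap between the groups either, with ratios of means of 9.37, 7.69 and 4.16.

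In 10 V genes that were above 0 in any library the groups overlapped. Trbv14 was at 15.7, 3.80 and 10.2 FPKM across the Con libraries against 14.5, 2.39 and 5.54 FPKM across the Abx libraries, and was the only V gene with a negative fitted difference, -0.46 (standard error 0.84). Trbv15 was at 10.1, 2.13 and 2.12 FPKM across the Con libraries against 11.5, 3.33 and 6.11 FPKM across the Abx libraries. Trbv19 was at 15.0, 7.39 and 13.1 FPKM across the Con libraries against 39.6, 39.3 and 14.8 FPKM across the Abx libraries. Trbv14 was the highest V gene of Con library 1, and in Trbv19 only Abx library 3 lay within the range of Con. Trbv29 was at 0.97, 1.18 and 6.86 FPKM across the Con libraries against 5.11, 28.6 and 2.09 FPKM across the Abx libraries. Trbv31, read from the opposite strand behind Trbc2, was at 7.63, 0.32 and 0.56 FPKM across the Con libraries against 1.97, 15.7 and 29.8 FPKM across the Abx libraries.

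Other V genes were high in 1 or 2 libraries. Trbv5 was at 1.79, 1.66 and 2.25 FPKM across the Con libraries against 102, 1.46 and 26.9 FPKM across the Abx libraries. Its exons lie within the span of the lincRNA 5830405F06Rik, as do those of Trbv4, and that lincRNA was at 5.55 FPKM in Abx library 1 and at no more than 0.19 FPKM in the other libraries. Reads of overlapping genes on the same strand cannot always be told apart. Trbv26 was at 26.7 FPKM in Abx library 2, at 1.19 and 1.03 FPKM in Abx libraries 1 and 3, and at 0.28 and 0.30 FPKM in Con libraries 2 and 3, listed at 0 in Con library 1. Trbv23 was at 25.9 FPKM in Abx library 3 and at 0.31 to 0.60 FPKM in the other libraries. Trbv26, like Trbv20, passed the filter through its 3 Abx libraries alone, and Trbv13-2 passed with 1 Con library besides, while Trbv23, Trbv24 and Trbv30 stayed outside it. Trbv30 reached 0.80 FPKM at most.

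**Figure D4:**
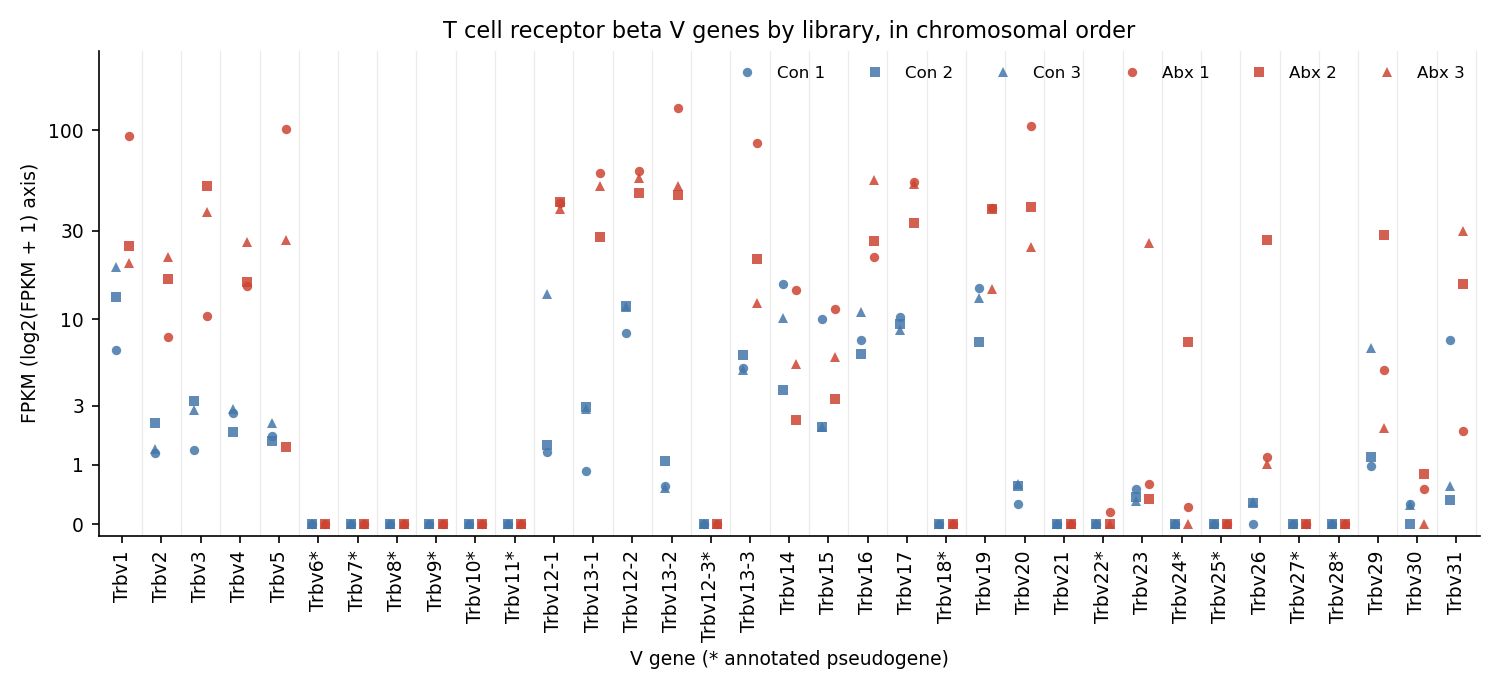
FPKM of the 35 V genes in the 6 libraries, in chromosomal order, on a log2(FPKM + 1) axis labelled in FPKM. Blue is Con and red Abx, circle, square and triangle are libraries 1, 2 and 3, and an asterisk marks annotated pseudogenes. The gap between red and blue points is widest at Trbv13-2 and Trbv20, the groups mix at Trbv14 and Trbv15, and 12 V genes lie at 0 throughout.

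The V signal was spread over many genes in both groups. The highest V gene of a library held 16.6% ± 0.590 of its V signal in Con and 11.7% ± 2.91 in Abx (SD, n = 3 each), and the 3 highest held 41.9% ± 2.39 and 32.0% ± 5.99. To reach 50% of the V signal took 4, 4 and 5 genes in Con and 5, 6 and 6 genes in Abx. To reach 80% took 8, 9 and 8 genes in Con and 8, 12 and 11 genes in Abx. The effective number of V genes was 10.2, 10.2 and 10.6 across Con and 10.8, 15.0 and 14.2 across Abx. Abx library 1, which had the highest V sum, was close to the Con libraries in this measure, and the other two Abx libraries were more even.

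**Figure D5:**
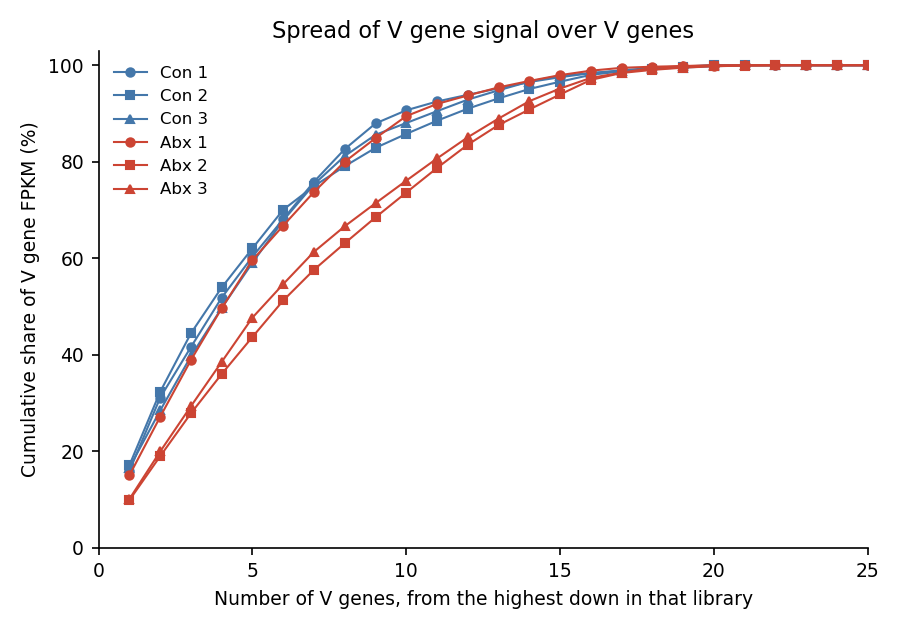
Cumulative share of V gene FPKM (percent) against the number of V genes, taken from the highest down within each library, with Con in blue and Abx in red. Abx libraries 2 and 3 rise more slowly than the others and need 12 and 11 genes to reach 80%, while Abx library 1 follows the 3 Con libraries, with 8 genes against 8, 9 and 8.

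The order of the V genes was also less alike between groups than within Con. Over the 23 V genes above 0 in any library, log levels of libraries correlated at 0.720 to 0.866 within Con (Pearson's r, 3 pairs). The range was 0.540 to 0.711 within Abx (3 pairs) and 0.200 to 0.685 between the groups (9 pairs). The points are genes of the same libraries, so these values are a description. As a share of the V signal of the library, Trbv13-2, Trbv20 and Trbv13-1 were higher in every Abx library than in every Con library, and Trbv14, Trbv15 and Trbv19 were lower. Trbv13-2 held 0.809% ± 0.527 of the V signal in Con and 11.0% ± 3.47 in Abx. Trbv19 held 12.0% ± 2.91 in Con and 4.92% ± 2.48 in Abx (SD, n = 3 each).

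Along the chromosome the ratio of Abx to Con was not uniform. The stretch from Trbv2 to Trbv5 summed to 7.15, 9.06 and 9.31 FPKM across the Con libraries against 135, 85.7 and 113 FPKM across the Abx libraries, a ratio of 13.1. The stretch from Trbv12-1 to Trbv13-3, which holds the genes that share most sequence, summed to 16.4, 23.6 and 34.0 FPKM across the Con libraries against 381, 185 and 212 FPKM across the Abx libraries, a ratio of 10.5. From Trbv14 to Trbv20 the sums were 59.1, 29.6 and 45.7 FPKM across the Con libraries against 246, 144 and 159 FPKM across the Abx libraries, a ratio of 4.09. This last stretch held 38.1% to 59.9% of the V signal in Con and 27.8% to 28.5% in Abx. The stretch from Trbv12-1 to Trbv13-3 held 16.6% to 30.4% in Con and 35.6% to 44.0% in Abx. At Trbv1 the ratio was 3.51. It was 8.22 from Trbv21 to Trbv30 without pseudogenes and 5.58 at Trbv31, and in both the groups overlapped. How levels relate to the distance from the D segments was not tested over all V genes. Trbv30, the nearest on that side, was under 1 FPKM in every library, and Trbv1, the farthest, was at 6.67 FPKM or more in every library.

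The other T cell receptor loci were examined by the same classes for comparison. V genes of the alpha locus summed to 26.8, 51.2 and 50.5 FPKM across the Con libraries against 230.1, 56.8 and 123 FPKM across the Abx libraries. Trac, the alpha C gene, was at 11.7, 3.01 and 10.8 FPKM across the Con libraries against 21.2, 14.1 and 0.22 FPKM across the Abx libraries. Alpha V genes were thus higher in every Abx library, while Trac overlapped and was far under the beta C genes in both groups. V genes of the gamma locus summed to 24.9 and 35.4 FPKM in Con libraries 1 and 2, were listed at 0 in Con library 3, and summed to 135, 99.4 and 125 FPKM in Abx. The gamma C genes summed to 323 ± 59.7 FPKM in Con against 403 ± 112 FPKM in Abx (SD, n = 3 each). Beta C genes were the most abundant C genes of the T cell receptor loci in every library. The delta C gene Trdc was at 1.91, 0.01 and 1.19 FPKM across the Con libraries against 8.08, 6.81 and 4.91 FPKM across the Abx libraries. Delta V genes summed to 156.9, 139.4 and 170.2 FPKM across the Con libraries against 267.6, 257.7 and 214.9 FPKM across the Abx libraries. Their sum was above that of the beta V genes in every Con library and below it in every Abx library.

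Genes of the partner chains and CD3 proteins, recombination, factors acting at the locus, and receptor kinases and adaptors were taken from 4 lists. They were 46 genes in all, of which 37 were tested. With limma none was called (0.0574% of all genes tested were), and 7 had an unadjusted p under 0.05 with a higher level in Abx and 3 with a lower one, beside 4.74% and 6.25% of all genes tested. The lists were chosen with earlier results of these data known, so nothing is read from these counts. Among the 7, Tcf7 passed the filter through its Abx libraries alone, and Ptcra and Dntt were under 1 FPKM in most Con libraries. The median fitted difference was 0.47 over these 37 genes. Among partner chains and CD3 proteins, Ptcra was at 6.13 FPKM in Con library 1, listed at 0 in the other two, and at 63.1, 44.6 and 15.2 FPKM in Abx. Cd3d was at 8.32, 6.10 and 4.46 FPKM across the Con libraries against 63.8, 37.2 and 108 FPKM across the Abx libraries. Both were higher in every Abx library, as was Cd3g, at 93.3, 124 and 124 FPKM across the Con libraries against 140.1, 196 and 147 FPKM across the Abx libraries. Cd3e and Cd247 overlapped. The 7 genes of this list summed to 133 to 151 FPKM in Con and to 302 to 319 FPKM in Abx.

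Of the recombination genes, Dntt, which adds bases at the junctions, was at 0.03, 0.02 and 11.6 FPKM across the Con libraries against 75.9, 140 and 156 FPKM across the Abx libraries. Rag1, a subunit of the recombinase, was at 0.86 FPKM in Con library 1, listed at 0 in the other two, and at 12.3, 0.99 and 7.80 FPKM in Abx. Both were above Con in every Abx library, although Rag1 only just in Abx library 2. Rag2, the other subunit, was listed at 0 in all 6 libraries. Prkdc and Dclre1c, which act when the cut ends are joined, were lower in every Abx library. Prkdc was at 2.62, 0.44 and 1.92 FPKM across the Con libraries against 0.04, 0.01 and 0.02 FPKM across the Abx libraries. Dclre1c was at 1.74, 2.71 and 1.64 FPKM across the Con libraries against 0.06, 0.24 and 0.25 FPKM across the Abx libraries. Among factors that act at the locus, Tcf7 was listed at 0 in all Con libraries and was at 29.4, 19.4 and 28.6 FPKM in Abx. Tcf12 was lower in every Abx library, at 4.03, 4.89 and 2.28 FPKM across the Con libraries against 0.51, 1.43 and 0.23 FPKM across the Abx libraries. Gata3 overlapped, at 76.2, 97.5 and 76.1 FPKM across the Con libraries against 95.8, 33.9 and 46.1 FPKM across the Abx libraries. Of the kinases and adaptors of the receptor, Lck was at 57.9, 60.5 and 58.0 FPKM across the Con libraries against 186, 128 and 361 FPKM across the Abx libraries. Rag1, Rag2 and Prkdc were under the filter and not tested, and limma called none of the other genes named here.

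Some markers of other cell types were also higher in the Abx libraries. Over the 8718 genes tested, the Abx libraries were all above in 8.49% and all below in 8.73%. Some of the markers counted below, such as Trat1, Rag1 and Csf1r, were under the filter and not tested. The 12 markers of alpha-beta T cells summed to 138 to 159 FPKM in Con and to 316 to 335 FPKM in Abx, and 4 of the 12 were higher in every Abx library, Cd3d, Cd3g, Cd8b1 and Trat1. Cd8b1 had 4.62 and 10.2 FPKM in Con libraries 1 and 2, was listed at 0 in Con library 3, and had 27.1, 52.2 and 36.4 FPKM in Abx. Of the other coreceptor chains, Cd4 was listed at 0 in all libraries but Abx library 2 (7.46 FPKM), and Cd8a was at 3.25 FPKM in Con library 1 and at 0.04 FPKM or listed at 0 elsewhere. The 10 thymocyte markers summed to 250 to 391 FPKM in Con and 251 to 373 FPKM in Abx, with 4 of 10 higher in every Abx library (Rag1, Dntt, Ptcra and Satb1) and Arpp21 lower. The 6 gamma-delta T cell markers found in the files summed to 256 to 360 FPKM in Con and 309 to 520.4 FPKM in Abx, with 1 of 6, Trdc, higher in every Abx library. The 8 B cell markers summed to 382 to 508 FPKM in Con and to 857 to 904 FPKM in Abx, and 3 of them, Ighm, Igkc and Ms4a1, were higher in every Abx library. Cd79b was lower in every Abx library, and Pax5 and Ebf1 stayed at or near 0 but for 2.33 FPKM of Pax5 in Abx library 1. The 8 markers of NK cells and ILC1s summed to 5.78 to 45.6 FPKM in Con and to 218 to 235 FPKM in Abx, in Abx nearly all of it Gzma, the 1 of 8 that was higher in every Abx library, with Klrb1c, Tbx21 and Prf1 listed at 0 in all libraries. The 8 myeloid markers summed to 119 to 366 FPKM in Con and 171 to 381 FPKM in Abx, mostly Lyz2, with Ly6g listed at 0 in all and Csf1r, at 0.36 FPKM at most, the 1 of 8 that was higher in every Abx library. The 6 markers of epithelium, endothelium and fibroblasts summed to 30.9 to 52.2 FPKM in Con and to 65.6 to 82.6 FPKM in Abx, and 1 of the 6, Sftpc, was higher in every Abx library. The part of these cells in the levels of the beta locus was not tested.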

How the data were processed

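The authors trimmed reads with Cutadapt, mapped them with HISAT2 and computed gene levels with StringTie, and the deposited values are FPKM, 1 table per library. The submitters' processing notes also name Bowtie 0.12.2 and the builds mm8 and mm9, and the study's methods a human annotation, whereas the files carry mouse identifiers. Of 55394 identifiers 55134 were in GENCODE M21 (GRCm38), and positions, exon lengths and sequences come from that annotation. Groups and replicate numbers were taken from the sample labels.

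Depth is unknown. At the candidate depth that fitted best in each library, 27.5% to 31.2% of low values fell near multiples of 1 read. Chance gives 20% at a fixed depth and can give more at the best of many depths. A read step was therefore not shown, and no counting error is given. Sums and shares were computed from FPKM as deposited. The 8718 genes that reached 1 FPKM in 3 or more of the 6 libraries were compared on log2(FPKM + 1), which understates differences of low genes, with limma 3.58.1 (lmFit, eBayes with trend, two-sided, Benjamini-Hochberg adjustment) in R 4.3.3. A call needed a more than 2-fold difference with an adjusted p below 0.05. The test was tried on simulated data, 20 draws over 8718 genes with 200 changed. Of genes changed by 4 on the log2 scale 70.8% were called, of those changed by 2 16.2%, and 4.50% of calls were false. The draws were independent normal values with the same spread in both groups. In the data the Abx libraries were less alike than the Con libraries and many values were 0, so these shares may not hold there. Alignments used Biopython 1.88, and tables Python 3.11.15 with pandas 2.3.3.

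Members and lists were chosen with earlier results of these data known. Named with values were all C genes, the D and J genes above 0, and the V genes with the highest mean, with the largest or smallest fitted difference, or nearest to the filter. Alternatives were other pseudocounts, filters and scalings, leaving out each library, a replicate block, weighting by exon length, and leaving out pseudogenes or Trbv13-2. Leaving out Trbv5, and the alternatives for V relative to C genes, were added after seeing the data.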

Additional observations from a re-analysis of the deposited data

How the results depend on the processing

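No alternative reversed the direction of the log2 ratios of the V, J and C sums or of V relative to C. Leaving out a library could not have reversed it, because every Abx library was above every Con library in each of these measures. The 5 genes called were 4 higher and 1 lower in Abx, and the 2 called without Abx library 2 were both lower. The 5 genes called fell to 0 with a pseudocount of 0.1 or 0.01, without the filter on low values, with median centring and with the replicate block. Leaving out a library in turn gave 0 to 2 genes, 2 without Abx library 2 and 0 without any other. A fit on fewer libraries can also call fewer genes, so these counts do not show which libraries the calls rested on. A member of the locus, Trbv13-2, was called (1 gene, from 0) with the filter at a mean of 5 FPKM and with quantile normalization, and no member and none of the receptor genes under any other setting. The replicate numbers did not pair the samples (correlations of -0.02, -0.03 and 0.01), and with the replicate block 0 members and 0 receptor genes were called. The log2 ratio of the V sums was 2.73, and 2.47 to 2.88 with a library left out, 2.65 weighted by exon length, 2.73 without pseudogenes, 2.77 with median centring, 2.56 without Trbv13-2 and 2.66 without Trbv5. That of the J sums was 0.97 (0.83 to 1.12 with a library left out, 0.74 without the pseudogene Trbj2-6) and that of the C sums 1.02 (0.95 to 1.08). V relative to C had a log2 ratio of 1.74, and 1.41 to 1.91 with a library left out. The effective number of V genes was 10.3 in Con, 9.73 weighted by exon length and 10.2 to 10.4 with a library left out, and 13.3 in Abx, 12.5 to 14.6 with a library left out. At a limit of 5 FPKM, 6 V genes instead of 13 were above it in every Con library and 13 instead of 19 in every Abx library, while at 0.1 FPKM the counts were 19 in Con and 20 in Abx. All Abx libraries were above all Con libraries in 20 members, and in 19 with median centring. With a library left out there were 21 to 24, but this count cannot fall when a library is removed. Depth is unknown, so the uneven levels of short D and J genes cannot be given a counting error.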

Other observations

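The span of the beta locus holds 28 annotated genes besides its segments, and 27 of them were listed at 0 in all 6 libraries. The lincRNA 5830405F06Rik was the exception. V genes of the immunoglobulin loci were also detected in these ILC2 libraries. The kappa V genes summed to 147, 163 and 261 FPKM in Con and to 352, 443 and 349.5 FPKM in Abx, and the heavy chain V genes to 86.6, 40.9 and 78.3 FPKM in Con and to 170.0, 98.3 and 142 FPKM in Abx. Both sums were higher in every Abx library. J genes of the alpha locus summed to 59.2 FPKM in Abx library 1, 1.51 and 1.16 FPKM in the other two, and no more than 0.31 FPKM in a Con library.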
